A study of Homo sapiens with 4 samples.

Results

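The genes described here are 10 regulators and effectors of the integrated stress response: ATF4, ATF5, ATF3, DDIT3, CEBPB, CEBPG, NUPR1, TRIB3, CHAC1 and PPP1R15A. They were taken by name from a table of read counts with 35767 gene rows, and all 10 were found and passed the filter on low counts, among 20098 genes tested. The table comes from RNA sequencing of SAS, an established human cell line of tongue squamous carcinoma origin. As labelled, 2 libraries were from cells given an siRNA against NAT10 (siNAT10, replicates 1 and 2) and 2 from cells given a control siRNA (siControl, replicates 1 and 2, genotype WT). The genotype label of siNAT10 replicate 2 reads as a knockdown of NAT11 and that of siNAT10 replicate 1 as a knockdown of NAT10. No source used here gives the siRNA sequence, its dose or the time after transfection. By its title, the study concerns NAT10, an RNA cytidine acetyltransferase, and its modification of DDIT4 mRNA in head and neck carcinoma.

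In the integrated stress response, kinases that sense amino acid shortage, unfolded proteins, double-stranded RNA or mitochondrial and haem stress phosphorylate the translation factor eIF2. General translation then slows, while the mRNA of ATF4 is translated more. ATF4 pairs with C/EBP proteins and with other bZIP factors at promoters and raises transcription of genes for amino acid supply, of further regulators such as DDIT3 and ATF3, and of PPP1R15A, whose product brings a phosphatase to eIF2 and ends the response. ATF4 is therefore controlled largely at translation, which read counts do not measure. CHAC1 is an enzyme, TRIB3 a pseudokinase and PPP1R15A a phosphatase subunit, so these 3 genes of the group do not encode DNA-binding factors.

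Promoter windows of 9 of the 10 genes, 250 bases before to 50 bases after each RefSeq start (GRCh38.p14), were searched for the pairing site of C/EBP and ATF factors, spelled TGATGNAA here, and for the cyclic AMP response element TGACGTCA, on both strands. Only the windows that held a site are shown, and capitals mark the site. Their genes were all lower in the libraries labelled siNAT10. So were ATF5, DDIT3, TRIB3 and CEBPB, whose windows held neither site. Those of ATF4 held neither site as well, and NUPR1 had no window. A link between a site and a fall was not tested. ATF3 (plus strand, chr1:212565157-212565456), CHAC1 (plus strand, chr15:40953221-40953520) and CEBPG (plus strand, chr19:33373863-33374162, 1 of its 2 windows) held the C/EBP-ATF site, and PPP1R15A (plus strand, chr19:48872171-48872470) held the cyclic AMP response element.
ATF3: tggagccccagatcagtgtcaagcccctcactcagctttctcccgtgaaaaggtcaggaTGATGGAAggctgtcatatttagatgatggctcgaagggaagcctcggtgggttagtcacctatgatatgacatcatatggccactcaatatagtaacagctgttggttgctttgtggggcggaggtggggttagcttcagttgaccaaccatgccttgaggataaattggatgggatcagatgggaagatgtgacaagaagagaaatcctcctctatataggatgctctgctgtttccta
CHAC1: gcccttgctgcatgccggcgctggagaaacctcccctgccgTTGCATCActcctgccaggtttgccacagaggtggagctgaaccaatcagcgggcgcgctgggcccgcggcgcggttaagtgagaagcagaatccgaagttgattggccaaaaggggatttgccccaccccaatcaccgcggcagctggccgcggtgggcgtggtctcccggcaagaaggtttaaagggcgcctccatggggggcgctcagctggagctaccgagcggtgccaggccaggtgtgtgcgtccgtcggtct
CEBPG: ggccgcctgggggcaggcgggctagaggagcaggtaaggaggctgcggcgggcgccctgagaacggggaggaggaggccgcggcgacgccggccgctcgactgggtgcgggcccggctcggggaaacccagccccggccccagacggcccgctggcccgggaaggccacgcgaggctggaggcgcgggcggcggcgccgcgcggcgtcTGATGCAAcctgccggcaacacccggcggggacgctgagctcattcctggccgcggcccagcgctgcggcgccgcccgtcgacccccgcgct
PPP1R15A: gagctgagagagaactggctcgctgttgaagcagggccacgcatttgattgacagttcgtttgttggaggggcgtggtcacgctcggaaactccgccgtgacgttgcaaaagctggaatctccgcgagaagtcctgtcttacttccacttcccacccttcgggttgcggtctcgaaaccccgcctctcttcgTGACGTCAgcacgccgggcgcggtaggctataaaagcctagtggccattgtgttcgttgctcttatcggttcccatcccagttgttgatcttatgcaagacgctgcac

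The sites began 191 bases before the start in ATF3, 209 in CHAC1, 42 in CEBPG and 58 in PPP1R15A. In CHAC1 the site lay on the strand opposite to the gene. The C/EBP-ATF site was in the windows of 3 of 9 genes of the group, against 4.46% of the 27305 genes in the RefSeq table. Genes can have more than 1 window, and by window it was in 3 of 18, against 3.62% of the 35116 windows in that table. The cyclic AMP response element was in 1 of 9 genes, against 2.25% of genes in that table, and in 1 of 18 windows, against 1.85% of windows. A match of letters is a description of the window and not a measured binding site.

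The mRNA of NAT10 itself did not pass the test under the siNAT10 label, and its log2 fold change was positive with libraries scaled by TMM and -0.024 with totals alone. Its level was 252 and 248 CPM (counts relative to library sizes that were scaled by TMM, a normalisation for composition) in the siNAT10 libraries, against 240.2 and 231 CPM in the siControl libraries. The log2 fold change, siNAT10 over siControl as throughout, was 0.09 ± 0.06 (SE, edgeR quasi-likelihood adjusted p = 0.293). NAA40, another name of which is NAT11, had 18.6 and 18.2 CPM in siNAT10 and 22.1 and 18.8 CPM in siControl, and did not pass the test either (-0.15 ± 0.10, edgeR adjusted p = 0.255). With totals alone NAA40 did pass, at -0.26 (edgeR adjusted p = 0.0491). Directions below are therefore those of the libraries labelled siNAT10, and the effect of NAT10 loss on them was not tested by these counts. Total counts were 30794757 to 36341785 per library. Biological replicates are labelled as such with no mention of separate cultures. The p-values thus cover the spread among 4 libraries, which may be technical. Of the epithelial markers of the line, KRT17, DSP and SFN were abundant, while KRT5, DSG3 and PKP1 had 0 to 7 counts in a library. CDH1 had 23 to 48 counts, TP63 had 14 to 36 and KRT14 had 55 to 154. KRT16 (-1.51 ± 0.10), KRT17 (-0.58 ± 0.07) and EPCAM (-0.99 ± 0.15) had the smallest adjusted p. Of the 8 epithelial markers tested, 5 were lower and 1 higher in siNAT10, with a summed level of 2708 to 2784 CPM in siNAT10 and 3328 to 3416 CPM in siControl. Markers of fibroblasts, endothelium and blood cells summed to 86.6 to 86.8 CPM in siNAT10 and 82.8 to 88.9 CPM in siControl. In that list 2 of 9 tested members were higher and 2 lower. CD68, which did not pass the test, was the most abundant, at 51.2 and 52.2 CPM in siNAT10 and 45.3 and 47.4 CPM in siControl. PDGFRB had 244 to 314 counts and was called higher (0.38 ± 0.14), but not by DESeq2 (adjusted p = 0.102). PTPRC and HBB had 0 to 4 counts. The smallest adjusted p belonged to VWF, with 39 and 26 counts in siNAT10 and 7 and 2 counts in siControl, to PECAM1, with 10 and 4 counts in siNAT10 and 35 and 46 counts in siControl, and to COL1A1 (-0.42 ± 0.09). The part of such differences in the results below was not tested.

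Of the 10 stress response genes, 9 fell in the libraries labelled siNAT10 and ATF4 did not pass the test. Over all tested genes, 40.4% were called at an adjusted p of 0.05, 20.7% lower and 19.7% higher. In bulk RNA, fewer cells that express a gene and less RNA per cell cannot be told apart. In 9 of the 10 genes both siNAT10 libraries were below both siControl libraries, a pattern that 35.4% of all tested genes showed. NUPR1, TRIB3, CHAC1 and CEBPG fell at least 2-fold, against 5.62% of all tested genes. The median log2 fold change of the 10 genes was -0.75, beside -0.01 for all tested genes. With libraries scaled by their totals alone, the median of all genes lay at -0.12, and 67.6% of calls were lower, against 51.3% with TMM. The 9 genes were called lower under both scalings.

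**Figure D1:**
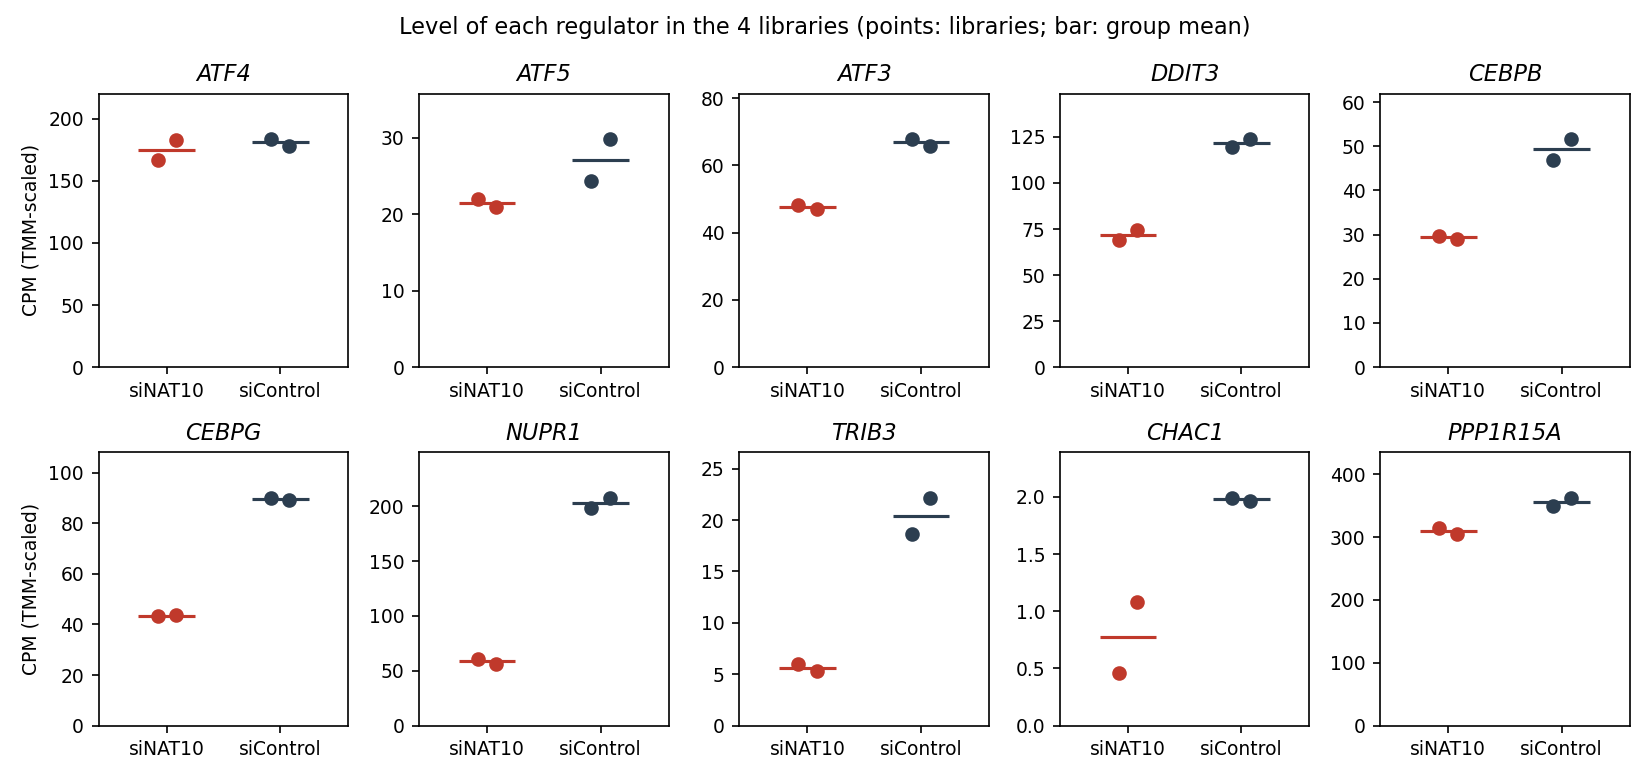
CPM of each gene in the 2 siNAT10 libraries (red) and the 2 siControl libraries (dark), each panel with its own axis from 0; points are libraries and bars group means. The groups overlap in ATF4 and are apart in the other 9 genes, widest in NUPR1 and TRIB3.

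ATF4, the bZIP activator at the centre of the response, did not pass the test for a difference in mRNA. ATF4 (chromosome 22, 39519695 to 39522685, plus strand, GRCh38) had 167 and 183 CPM in the siNAT10 libraries and 184 and 178 CPM in the siControl libraries. The siControl values lay close together and siNAT10 replicate 2 fell between them, so the groups overlapped. The log2 fold change was -0.05 ± 0.07 (edgeR quasi-likelihood adjusted p = 0.600, 95% interval from -0.19 to 0.09), which places the fold between 0.876 and 1.07. Without siNAT10 replicate 1 the estimate turned to 0.02. With libraries scaled by totals alone the estimate was -0.16, nearer to passing (edgeR adjusted p = 0.0650).

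ATF5, a bZIP factor whose translation is also controlled by eIF2, fell by a small amount. ATF5 (chromosome 19, 49928702 to 49933935, plus strand) had 22.1 and 21.0 CPM in siNAT10, against 24.4 and 29.8 CPM in siControl. The groups did not overlap, but the siControl libraries differed from each other by 1.22-fold, nearly as much as the groups did. On the log2 scale the groups were apart by -0.33 ± 0.10 (SE; edgeR adjusted p = 0.013). The call was lost without siControl replicate 2 (-0.18, adjusted p = 0.215) and without siNAT10 replicate 2 (-0.30, adjusted p = 0.0797). Of its exon bases, 21.2% also lie in exons of NUP62 and 2.5% in those of IL4I1, both on the opposite strand. The strand setting of the counting is unknown, so reads of such overlapping genes cannot be told apart. If the counts of NUP62 and IL4I1 were spread evenly over their exons, the shared bases would hold part of the ATF5 counts. That part would be 15.6% to 20.4% of the ATF5 counts of a library for NUP62 and 2.48% to 2.70% for IL4I1.

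ATF3, a stress-induced bZIP factor known mostly as a repressor, fell to 0.713 of its siControl level. ATF3 (chromosome 1, 212565334 to 212620777, plus strand) had 48.4 and 47.0 CPM in siNAT10, against 67.8 and 65.9 CPM in siControl. Both pairs of libraries were tight and the groups were well apart. The fitted log2 fold change was -0.49 ± 0.07 (edgeR adjusted p = 2.04e-05).

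DDIT3 encodes CHOP, a bZIP factor that dimerises with C/EBP proteins and is known for promoting death under lasting stress. DDIT3 (chromosome 12, 57516588 to 57520517, minus strand) had 69.1 and 74.6 CPM in siNAT10, against 119 and 124 CPM in siControl. The lowest siControl library stood 1.6-fold above the highest siNAT10 library. The estimate on the log2 scale was -0.76 ± 0.07 (edgeR adjusted p = 5.39e-08). Of its 1266 exon bases, 355 are shared with MARS, the methionyl-tRNA synthetase gene on the opposite strand. MARS fell too (-0.58 ± 0.07, edgeR adjusted p = 1.55e-06). If the counts of MARS were spread evenly over its exons, the shared bases would hold 4.78% to 5.72% of the DDIT3 counts of a library, and DDIT3 without them had a log2 fold change of -0.77.

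CEBPB and CEBPG, C/EBP family members that can pair with ATF4, both fell. CEBPB (chromosome 20, 50190734 to 50192689, plus strand) had 29.7 and 29.1 CPM in siNAT10, against 47.0 and 51.6 CPM in siControl (log2 fold change -0.75 ± 0.08, edgeR adjusted p = 5.74e-07). Its antisense gene CEBPB-AS1, whose exons cover 11.8% of the exon bases of CEBPB, had 78 to 116 counts in a library. CEBPB had 860 to 1918 counts. CEBPG (chromosome 19, 33373330 to 33382686, plus strand), which lacks an activation domain of its own and carries the C/EBP-ATF site printed above, had 43.5 and 43.6 CPM in siNAT10 and 90.1 and 89.1 CPM in siControl. These were the tightest pairs of the 10 genes in siNAT10, with an SD of 0.0402 CPM there. The difference on the log2 scale was -1.04 ± 0.07 (edgeR adjusted p = 8.29e-10). The 95% intervals of the log2 fold changes were -0.92 to -0.57 for CEBPB and -1.19 to -0.90 for CEBPG, so they overlapped at their ends, and the difference between both genes was not tested.

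NUPR1, a small chromatin-associated protein induced by stress, had the smallest adjusted p of the group. NUPR1 (chromosome 16, 28532708 to 28539174, minus strand) had 61.2 and 55.8 CPM in siNAT10, against 199 and 208 CPM in siControl. The lowest siControl library was 3.25-fold above the highest siNAT10 library. Between the groups the log2 difference was -1.80 ± 0.07 (SE; edgeR adjusted p = 4.88e-13). Of all tested genes, 1.98% had a lower one.

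TRIB3, a pseudokinase that binds ATF4 and AKT and acts as a brake on ATF4 activity, had the lowest log2 fold change of the 10. TRIB3 (chromosome 20, 362835 to 397559, plus strand) had 6.01 and 5.28 CPM in siNAT10, against 18.7 and 22.2 CPM in siControl. Its level per length was the lowest of the 10 genes but CHAC1 in all 4 libraries, and the groups were 3.11-fold apart at their nearest libraries. In log2 terms the change was -1.85 ± 0.13 (edgeR adjusted p = 1.07e-09), and 1.86% of tested genes lay below it. Its 95% interval, -2.12 to -1.58, contained that of NUPR1, -1.95 to -1.65.

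CHAC1, an enzyme that breaks down glutathione and a well-known target of ATF4 and CHOP, rested on few counts. CHAC1 (chromosome 15, 40952962 to 40956519, plus strand) had 16 and 32 counts in the siNAT10 libraries, against 76 and 73 counts in the siControl libraries, which were 0.462 and 1.08 CPM against 1.99 and 1.96 CPM. Both siNAT10 libraries were lower, but they differed from each other by 2.34-fold while the siControl libraries nearly coincided. The fitted log2 difference was -1.38 ± 0.34 (SE; edgeR adjusted p = 0.00307). It was -2.09 without siNAT10 replicate 2 and -0.86 without siNAT10 replicate 1, where the call was lost (adjusted p = 0.0559).

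PPP1R15A, the stress-induced phosphatase subunit GADD34 that reverses eIF2 phosphorylation, had the smallest fall among the genes called. PPP1R15A (chromosome 19, 48872392 to 48876057, plus strand) had 314 and 305 CPM in siNAT10, against 349 and 363 CPM in siControl. The groups were apart by 1.11-fold at their nearest libraries. The fitted log2 difference was -0.20 ± 0.06 (SE; edgeR adjusted p = 0.0143). The call was lost without siNAT10 replicate 1 (-0.22, adjusted p = 0.0778) and without siNAT10 replicate 2 (-0.18, adjusted p = 0.164). Its constitutive relative PPP1R15B did not pass the test (-0.05 ± 0.07, edgeR adjusted p = 0.587).

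**Figure D2:**
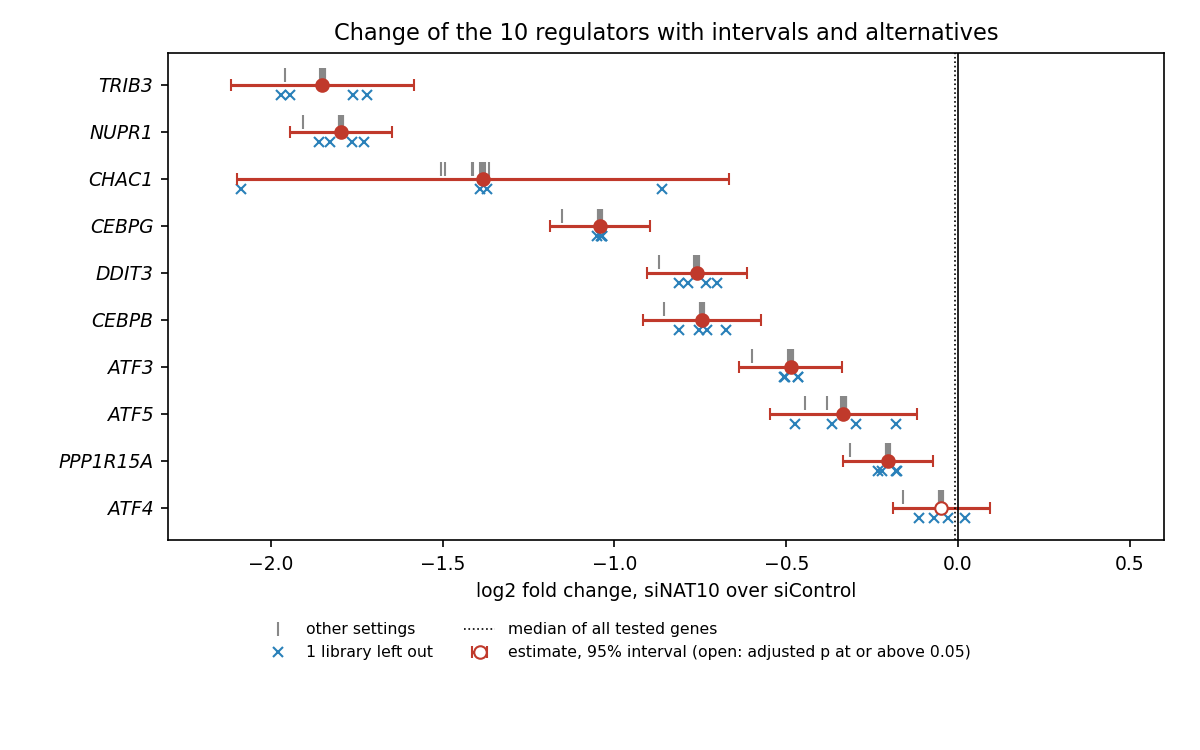
Log2 fold change, siNAT10 over siControl, of the 10 genes with the 95% interval (red; open circle where the adjusted p was at or above 0.05), the values with 1 library left out (crosses) and under the other settings (grey bars); the dotted line is the median of all tested genes. TRIB3 and NUPR1 lie lowest at -1.85 and -1.80, CHAC1 has the widest interval, and the interval of ATF4 spans 0.

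Levels between genes were set side by side per length, as FPKM (here the CPM above divided by exon length in kilobases). The group was led by PPP1R15A, ATF4 and DDIT3, which made up 79.5% and 80.6% of the summed FPKM of the 10 genes in the siNAT10 libraries and 71.6% and 71.0% in the siControl libraries. PPP1R15A was first in every library, at 101 and 98.5 FPKM in siNAT10 and 113 and 117 FPKM in siControl. The summed level of the 10 genes was 280 and 286 FPKM in siNAT10, against 391 and 403 FPKM in siControl.

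Per length, DDIT3 and ATF4 changed places between the groups. In CPM, ATF4 was above DDIT3 in all 4 libraries, so their order rests on the summed exon lengths, 1266 bases for DDIT3 and 2514 for ATF4. Such lengths (5674 bases for NUPR1) may differ from those of the transcripts present, which was not tested. Ranks and crossings between genes depend on them, while a change of a ratio between the groups does not. DDIT3 was at 54.6 and 58.9 FPKM in siNAT10 and 94.3 and 97.8 FPKM in siControl, while ATF4 was at 66.4 and 72.8 FPKM in siNAT10 and 73.0 and 70.9 FPKM in siControl. The ratio of DDIT3 to ATF4 in FPKM was 0.823 and 0.810 in the siNAT10 libraries, against 1.29 and 1.38 in the siControl libraries. NUPR1 held ranks 6 and 7 in the siNAT10 libraries, with 10.8 and 9.83 FPKM, and rank 4 in both siControl libraries, with 35.03 and 36.6 FPKM. In siNAT10 its level could not be told from that of CEBPG, at 9.86 and 9.88 FPKM, since their order differed between the replicates. ATF3 was above CEBPG in siNAT10, with FPKM ratios of 1.21 and 1.18, and below it in siControl, with ratios of 0.821 and 0.807. ATF5 and TRIB3 held ranks 8 and 9 in all 4 libraries, and CHAC1 was last, at 0.224 and 0.526 FPKM in siNAT10 and 0.969 and 0.955 FPKM in siControl.

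**Figure D3:**
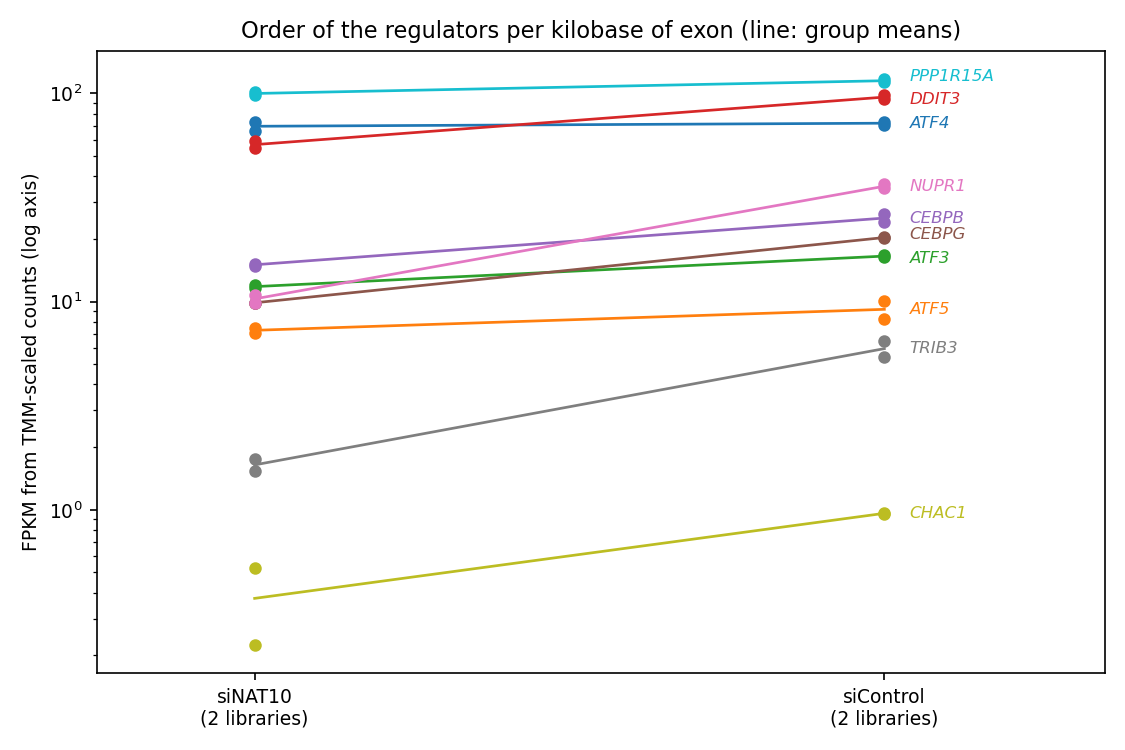
FPKM on a log axis of the 10 genes in the siNAT10 libraries (left) and the siControl libraries (right); points are libraries and lines join group means. The lines of DDIT3 and ATF4 cross, as do those of ATF3 and CEBPG, and that of NUPR1 crosses those of CEBPB and ATF3, while PPP1R15A stays at the top and CHAC1 at the bottom.

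The other genes of the pathway were counted in lists that exclude the 10 genes and may share members with each other. Shares given with them stand beside the 20.7% of all tested genes that fell and the 19.7% that rose. Upstream of ATF4, the kinases, eIF2 and eIF2B subunits and their controls went both ways. Of 23 tested genes, 10 (43.5%) rose and 6 (26.1%) fell, so the share that rose was further from that of all tested genes. The median log2 fold change was 0.10, or -0.014 with libraries scaled by totals alone. Without rows that overlap another gene the median was 0.40, with 6 of 10 genes higher and 2 lower. With 1 library left out it ran between 0.022, without siNAT10 replicate 2, and 0.16, without siControl replicate 2, and it was 0.031 without siControl replicate 1. EIF2AK4 (GCN2, the kinase that senses uncharged tRNA) rose to 127 and 133 CPM in siNAT10, against 74.8 and 75.9 CPM in siControl (log2 fold change 0.79 ± 0.07, edgeR adjusted p = 2.1e-08). EIF2A, an initiation factor that overlaps SERP1, rose by 0.56 ± 0.07, and DNAJC3, an inhibitor of eIF2 kinases, fell (-0.51 ± 0.07). Among the other kinases, EIF2AK1 rose (0.38 ± 0.06), EIF2AK3 (PERK) fell (-0.34 ± 0.08) and EIF2AK2 (PKR) was at -0.13 ± 0.07 without passing the test (edgeR adjusted p = 0.139), though it passed at -0.24 with totals alone (adjusted p = 0.00835); these 3 were named after their values were seen, to complete the kinases, and each has an opposite-strand row in its exons.

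Among 38 tested other bZIP factors, 21 (55.3%) fell and 3 (7.89%) rose, with a median log2 fold change of -0.34. CREB3L3, a membrane-bound factor of the endoplasmic reticulum, fell to 23.4 and 31.1 CPM in siNAT10, against 83.1 and 92.5 CPM in siControl (-1.69 ± 0.11, edgeR adjusted p = 7.18e-09). JUNB, which overlaps HOOK2, and XBP1, the factor of the IRE1 arm, both fell by 0.94 on the log2 scale. The 3 genes that rose were JUN (0.56 ± 0.07), FOS (0.63 ± 0.15) and FOSL1 (0.36 ± 0.09), which encode AP-1 subunits. Other AP-1 subunit genes fell, namely JUNB and FOSL2 (-0.34 ± 0.07), while JUND (-0.17 ± 0.09) and FOSB (0.24 ± 0.14) did not pass the test. The calls of FOS and FOSL1 were lost without siNAT10 replicate 2 (adjusted p = 0.0592 and 0.0919). Of 7 tested close relatives of the 10 genes, 3 were called, a share of 42.9% beside 40.4% of all tested genes. The genes that fell were JDP2 (-0.47 ± 0.08, overlapping RP11-293M10.6), CEBPA, with 2 overlapping rows, and TRIB1. By edgeR 0 rose, also at an unadjusted p below 0.05, and by DESeq2 0 rose and 1 fell, CEBPA and TRIB1 not being called (adjusted p = 0.111 and 0.144). The calls of CEBPA (-0.54 ± 0.19) and TRIB1 (-0.36 ± 0.14) were lost without siControl replicate 1 (adjusted p = 0.189 and 0.321) and without siNAT10 replicate 2 (adjusted p = 0.146 and 0.0802), and that of TRIB1 also without siNAT10 replicate 1 (adjusted p = 0.161). The relatives CHAC2 (-0.04 ± 0.12), CEBPD (-0.20 ± 0.20) and NUPR2 (0.03 ± 0.30) did not pass the test.

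Downstream, genes of amino acid supply mostly fell. Of 20 tested genes of amino acid synthesis and transport, 18 (90%) fell and 1 (5%) rose, with a median log2 fold change of -0.70. The gene not called was SLC7A5, a transporter gene that overlaps RP4-536B24.2 (0.81 ± 0.35, edgeR adjusted p = 0.218). It had 204 and 341 CPM in siNAT10, against 160 and 151 CPM in siControl, so both siNAT10 libraries were higher but far from each other. Asparagine synthetase ASNS fell to 28.4 and 27.96 CPM in siNAT10, against 72.1 and 76.5 CPM in siControl (-1.40 ± 0.08, edgeR adjusted p = 4.66e-11). PHGDH and the cystine transporter gene SLC7A11, which overlaps SLC7A11-AS1, fell by 1.01 on the log2 scale each. The gene that rose was ALDH18A1, an enzyme of proline synthesis (0.33 ± 0.08), whose call was lost without siNAT10 replicate 2 (adjusted p = 0.0872). Of 13 tested aminoacyl-tRNA synthetase and tRNA export genes, 9 (69.2%) fell and 2 (15.4%) rose, with a median of -0.41. CARS (-0.93 ± 0.06, overlapping CARS-AS1), AARS (-0.89 ± 0.06) and SARS (-0.75 ± 0.07) led by adjusted p. LARS (0.56 ± 0.07, overlapping RP11-118M9.3) and NARS (0.24 ± 0.06) rose. The call of NARS was lost with totals alone (adjusted p = 0.127) and without siNAT10 replicate 1 (adjusted p = 0.0591).

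Secreted factors and growth brakes had the lowest median among the pathway lists. Of 12 tested genes, 10 (83.3%) fell and 1 (8.33%) rose, with a median log2 fold change of -1.15. INHBE, an activin subunit gene, had 3.72 and 2.88 CPM in siNAT10, against 30.3 and 29.4 CPM in siControl (-3.16 ± 0.13, edgeR adjusted p = 5.41e-13). STC2, a secreted glycoprotein gene, fell by 1.09 and SESN2, a leucine-responsive inhibitor of mTORC1, fell by 1.52 on the log2 scale. VLDLR, a lipoprotein receptor gene that overlaps VLDLR-AS1, rose (0.35 ± 0.11). Its call was lost by DESeq2 (adjusted p = 0.0583), with totals alone (adjusted p = 0.0932), without siControl replicate 1 (adjusted p = 0.0639) and without siNAT10 replicate 1 (adjusted p = 0.111). Of 8 tested genes tied to CHOP and cell death, 7 (87.5%) fell, with a median of -0.43. The 7 include BCL2, which encodes a survival protein and not a death factor (-0.73 ± 0.22, edgeR adjusted p = 0.0111). By edgeR 0 rose, also at an unadjusted p below 0.05, and by DESeq2 0 rose and 5 fell. The BH3-only genes PMAIP1 and BBC3, of which BBC3 overlaps MIR3190, had log2 fold changes of -1.79 ± 0.08 and -1.19 ± 0.13, and the death receptor gene TNFRSF10A, with 2 overlapping rows, fell (-0.49 ± 0.09). ERO1A, an oxidase of the endoplasmic reticulum induced by CHOP, which overlaps RP11-841O20.2, was at 0.06 ± 0.08 (edgeR adjusted p = 0.627).

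In the IRE1 and ATF6 arms of the unfolded protein response more genes fell than rose, while autophagy genes went both ways. Of 26 tested genes of the IRE1 and ATF6 arms, 14 (53.8%) fell and 2 (7.69%) rose, with a median log2 fold change of -0.24. DERL2 (-0.84 ± 0.08, overlapping MIS12), HERPUD1 (-0.75 ± 0.08) and ERN1 (-0.95 ± 0.11), which encodes IRE1, followed XBP1 in order of adjusted p. The chaperone gene HSPA5, a common readout of ATF6, was at 0.04 ± 0.06 (edgeR adjusted p = 0.682). PDIA3 (0.39 ± 0.06) and SYVN1 (0.21 ± 0.08), both with overlapping rows, were the genes that rose. The call of SYVN1 was lost by DESeq2 (adjusted p = 0.061), with totals alone (adjusted p = 0.291), and without siControl replicate 1 or either siNAT10 library (adjusted p = 0.0952 to 0.135). Of 12 tested autophagy genes, 3 fell and 2 rose, with a median of -0.05. The 25% that fell and 16.7% that rose were near the 20.7% and 19.7% of all tested genes. ATG3, overlapping SLC35A5, and ATG10, overlapping RPS23, rose (0.40 ± 0.07 and 0.24 ± 0.07), while GABARAP, with 2 overlapping rows, and MAP1LC3B, overlapping FBXO31, had log2 fold changes of -0.47 ± 0.11 and -0.32 ± 0.09. BECN1, with 2 overlapping rows, was at -0.19 ± 0.07 (edgeR adjusted p = 0.0331). Its call was lost by DESeq2 (adjusted p = 0.0827) and without siControl replicate 2 or either siNAT10 library (adjusted p = 0.129 to 0.184). That of ATG10 was lost with totals alone (adjusted p = 0.152) and without siNAT10 replicate 2 (adjusted p = 0.264). The call of MAP1LC3B was lost without siNAT10 replicate 2 (-0.29, adjusted p = 0.0528), where 2 autophagy genes were called in place of 5.

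**Figure D4:**
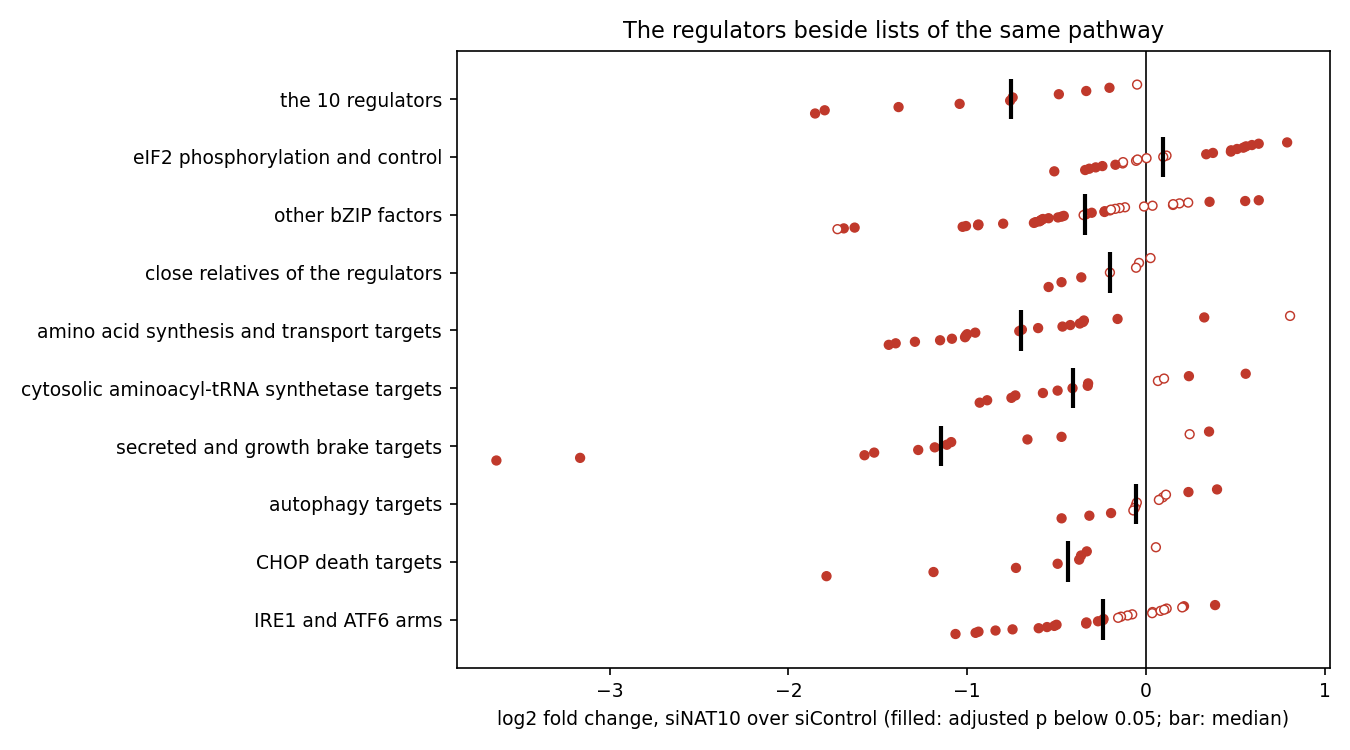
Log2 fold change, siNAT10 over siControl, of the 10 genes (top) and of each tested gene in the pathway lists; filled circles had an adjusted p below 0.05 and black bars are medians. The medians run from -1.15 in the secreted and growth brake list to 0.10 in the list of eIF2 phosphorylation and control, with the 10 genes at -0.75.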

How the data were processed

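Libraries of TRIzol-extracted RNA were made with a KC Digital mRNA kit, per the labels' protocols. The submitters' processing notes name GRCh38, featureCounts, STAR 2.5.3a and fastp 0.23.4. No source used here gives the annotation, the strand setting or how overlapping genes were treated. The authors deposited a whole-number read count for each gene row, with no normalisation. Of counts from 1 to 50 in a library, 72.0% to 73.5% were even; how the mates of a pair were counted was not stated, and halved counts were run as an alternative. Positions and exon lengths are the table's, and 9 of the 10 genes had the same start and end in GENCODE release 29.

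Counts were tested in R 4.3.3 with edgeR 4.0.16 (filterByExpr, TMM, glmQLFit with robust shrinkage, glmQLFTest, group as the only term, two-sided) on all 4 libraries, and adjusted by Benjamini-Hochberg over the 20098 tested genes (threshold 0.05). The code was tested on simulated counts. CPM, FPKM, means and SEs come from this fit. With 3 counts as a floor, 0.0787 to 0.102 CPM on the TMM scale was the limit of detection; intervals cover counting error and the spread between libraries only. Alternatives used DESeq2 1.42.0, limma 3.58.1 with voom, other scalings and filters, halved counts, a replicate block, no overlapping rows and each library left out.

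The members and lists were chosen with earlier results of these data known, and lists were described by counts and medians with no set test. Of each list, up to 3 called genes with the smallest adjusted p and not yet named were named, and NAT10 and NAA40 always. AP-1 genes, EIF2 kinases, relatives, the other named markers such as DSP, SFN and CD68, ALDH18A1, SLC7A5, LARS and NARS were added after their values were seen. So were VLDLR, BCL2, ATG10, BECN1, PDIA3, SYVN1, ERO1A and HSPA5. Libraries of a group differed beyond sampling noise (chi-square per degree of freedom 5.14 in siNAT10 and 8.68 in siControl). Promoters came from RefSeq (GRCh38.p14).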

Additional observations from a re-analysis of the deposited data

How the results depend on the processing

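ATF3, DDIT3, CEBPB, CEBPG, NUPR1 and TRIB3 kept their direction and call in every alternative that tested them. With 1 library left out, log2 fold changes ranged from -0.11 to 0.021 for ATF4, -0.47 to -0.18 for ATF5, -2.09 to -0.86 for CHAC1 and -0.23 to -0.18 for PPP1R15A, and 7 to 9 of the 10 genes were called. No alternative without a left-out library moved a call among the 10 genes that it tested. NAT10 turned to -0.024, NAA40 passed the test at -0.26 and the list of eIF2 control genes turned to a median of -0.014 with libraries scaled by totals alone. The median of the autophagy list turned to 0.020 without overlapping rows, and ranged from -0.062 to 0.0197 with 1 library left out (0.0197 without siControl replicate 2 and 0.0049 without siNAT10 replicate 2). With 1 library left out, 2 to 5 of its genes were called.

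Without overlapping rows, 9865 genes were tested, 3934 were called and 2040 were lower, against 8120 and 4169. Fewer list genes could then be tested. Calls among tested genes were 8 of 10 for eIF2 control, 12 of 21 for other bZIP factors and 1 of 5 for close relatives. They were 12 of 12 for amino acid genes, 5 of 7 for tRNA synthetases and 7 of 8 for secreted factors and growth brakes. For CHOP death targets they were 4 of 4, and for the IRE1 and ATF6 arms 8 of 11. For autophagy, edgeR called 0 of 2 (0 at an unadjusted p below 0.05), against 4 called by DESeq2 with all rows. Of the close relatives, 1 was called by DESeq2 and 1 to 3 with 1 library left out.

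Replicate numbers were not shown to pair the libraries: deviations from the group means of libraries with the same number correlated at -0.106 over 9324 genes. With a replicate block, 8254 genes and 9 of the 10 were called, and with crossed numbers, chosen after seeing the data, 8706 and 9. Subtracting the share of overlapping partners, also chosen afterwards, gave -0.38 for ATF5, -0.77 for DDIT3 and -0.75 for CEBPB. CHAC1, with 16 to 76 counts in a library, was at -1.38 with counts halved.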
